A study of Mus musculus with 8 samples.

Results

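The genes described here are 8 genes of antioxidant defence and metal binding, chosen by name: Sod2, Mt1, Mt2, Hmox1, Nqo1, Gclm, Txnrd1 and Srxn1. All 8 were among the 52636 genes of the deposited count table, and all 8 were among the 15698 genes that passed a filter on low counts. They were measured by sequencing of polyadenylated RNA from cultured endothelial cells of the mouse liver, which form the inner wall of vessels. There were 4 groups of 2 libraries each: dKO cells given IL1B and TNFA, dKO cells left without them, WT cells given IL1B and TNFA, and WT cells left without them. The labels do not expand dKO. The study's design text speaks of removing Erg, Fli1 or both, which encode ETS transcription factors of endothelial cells, with 4-OHT, an active form of tamoxifen, over 48 hours, and of lysis after 7 days of culture and 16 hours with the inflammatory cytokines. The design text places the 4-OHT in the culture medium and the labels place it in mice, in the same words for dKO and WT samples, and neither names the Cre line, the strain or the age of the animals. Live cells that carried CD31 and VE-cadherin and lacked CD45 were sorted. The labels do not say whether the 2 libraries of a group are separate animals, cultures or preparations, and each p-value therefore reflects the spread among these libraries alone, which may be technical.

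As background, the 8 genes belong to 3 branches of the cell's answer to oxidants and metals. In the first, the transcription factor NRF2 (gene Nfe2l2) is held low by its partner KEAP1 and, once released by oxidants or electrophiles, binds antioxidant response elements (AREs) with small MAF proteins and turns on Hmox1, Nqo1, Gclm, Txnrd1 and Srxn1, while BACH1 represses some of the same sites. In the second, free zinc activates MTF1, which binds metal response elements (MREs) in front of the metallothionein genes Mt1 and Mt2. In the third, NF-kB, which IL1B and TNFA switch on, induces Sod2, the superoxide dismutase of mitochondria, in many cell types.

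Promoter sequence is shown for genes with a match to the element of their branch, so that the letters can be read beside the expression values. Srxn1 is left out, because its only match to that element lies past the start in the transcribed stretch. Of the 8 genes, 7 had a window in the RefSeq table (GRCm38.p6, 250 bases before to 50 after a start), which gave 9 windows. Each sequence runs 5′ to 3′ and ends 29 bases after the start base, which is offset 0. Capitals mark the MRE core (TGCACNC or TGCGCNC) in Mt1 and Mt2, the NF-kB site in Sod2 and the ARE core (TGACNNNGC) in Gclm and Txnrd1, on either strand.
Mt1 chr8:94178839-94179118 (GRCm38.p6, plus strand): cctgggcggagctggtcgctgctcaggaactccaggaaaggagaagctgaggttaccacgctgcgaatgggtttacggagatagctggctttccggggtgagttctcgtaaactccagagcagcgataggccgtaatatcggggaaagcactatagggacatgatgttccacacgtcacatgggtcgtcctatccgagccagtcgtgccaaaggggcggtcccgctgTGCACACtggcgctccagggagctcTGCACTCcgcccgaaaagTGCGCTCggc
Mt2 chr8:94172368-94172647 (GRCm38.p6, plus strand): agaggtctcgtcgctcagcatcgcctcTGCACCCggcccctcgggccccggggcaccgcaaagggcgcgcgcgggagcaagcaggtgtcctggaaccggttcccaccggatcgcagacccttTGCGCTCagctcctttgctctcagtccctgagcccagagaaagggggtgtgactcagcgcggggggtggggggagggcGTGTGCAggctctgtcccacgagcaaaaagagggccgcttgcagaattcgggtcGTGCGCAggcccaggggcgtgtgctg
Sod2 chr17:13007689-13007868 (GRCm38.p6, plus strand): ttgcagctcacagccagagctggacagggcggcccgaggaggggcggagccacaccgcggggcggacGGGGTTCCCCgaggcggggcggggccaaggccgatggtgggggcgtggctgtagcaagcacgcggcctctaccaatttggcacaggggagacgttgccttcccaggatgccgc
Gclm chr3:122245407-122245586 (GRCm38.p6, plus strand): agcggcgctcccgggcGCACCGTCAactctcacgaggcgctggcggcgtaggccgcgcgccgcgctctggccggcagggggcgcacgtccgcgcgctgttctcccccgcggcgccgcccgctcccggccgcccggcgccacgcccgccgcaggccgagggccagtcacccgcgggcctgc
Txnrd1 chr10:82859056-82859235 (GRCm38.p6, plus strand): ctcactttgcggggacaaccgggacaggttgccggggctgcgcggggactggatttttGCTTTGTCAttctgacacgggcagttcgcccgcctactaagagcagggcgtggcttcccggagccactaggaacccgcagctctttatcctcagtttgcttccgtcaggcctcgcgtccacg

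Mt1 had 3 MRE cores, which began at offsets -23, 2 and 20. Mt2 had 4, at -223, -128, -50 and 4, and 1 ARE core at -79. The Mt1 cores at 2 and 20 lie past the start, within the transcribed stretch. The Mt2 core at 4 lies past the RefSeq start, but before the Mt2 gene start in the GENCODE coordinates (94172664). Sod2 had an NF-kB site at -83, which matches on both strands. Gclm had 1 ARE core at -134, which overlaps 1 of its 3 MRE cores. The second of the 3 Txnrd1 starts had an ARE core at -92, and Srxn1 had an ARE core at 28, within the transcribed stretch, and an MRE core at -19. No match to the 3 motifs was seen in the window of Nqo1 or at the other Txnrd1 starts. An ARE core was present in 12.4% of 32851 windows of that length, an MRE core in 25.7% and an NF-kB site in 8.46%, so that single matches are common. How often a window holds 3 or more was not counted. A match is a description of the letters and shows no binding.

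**Figure D1:**
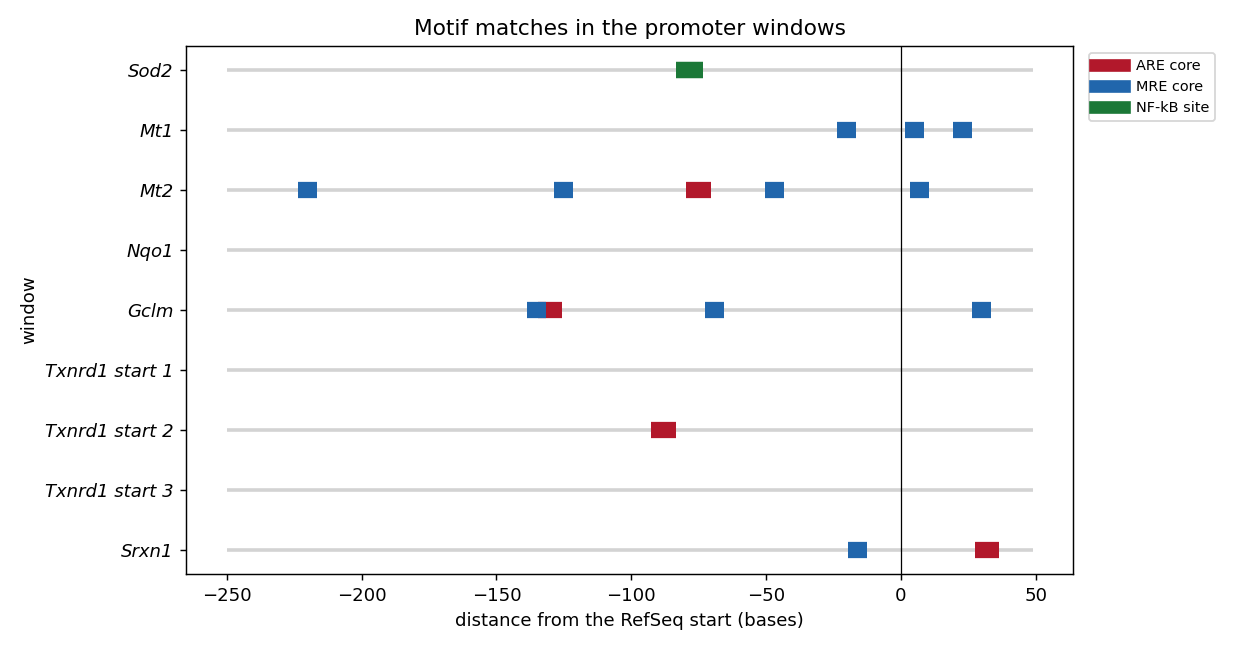
Position of motif matches in the 9 promoter windows of 7 genes, with the distance from the RefSeq start in bases on the x axis. Blue blocks are MRE cores, red blocks ARE cores and green blocks NF-kB sites. Mt1 and Mt2 hold 3 and 4 MRE cores, Gclm holds 3 and Srxn1 holds 1. Nqo1 and 2 of the 3 Txnrd1 starts hold no match.

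Before the results, some facts of the libraries bear on all of them. Total counts ran from 23009062 to 26944030 per library. Erg stood at 34.7 and 90.1 CPM (counts scaled to a common library total) in dKO replicates 1 and 2 with cytokines and 40.1 and 91.3 CPM in dKO without, against 208 and 201 CPM in WT with and 196 and 186 CPM in WT without. Fli1 stood at 12.3 and 35.2 and at 21.9 and 62.4 CPM in the same dKO libraries, against 91.5 and 96.3 and 161 and 177 CPM in WT. Both genes were lower in every dKO library than in every WT library of the same treatment, but with edgeR's quasi-likelihood test the adjusted p was between 0.0538 and 0.0864, and all 4 tests passed in DESeq2. The dKO replicate 2 libraries had more of both transcripts left than the dKO replicate 1 libraries. Counts per gene can include exons outside a deleted part. Xist, which marks female cells, stood at 0.849 and 224 CPM in dKO replicates 1 and 2 without cytokines and 0.480 and 632 CPM in WT, and the Y-linked Ddx3y at 140.0 and 90.5 CPM in dKO and 118 and 0.0337 CPM in WT, so replicates of a group differed in sex-linked transcripts and dKO replicate 2 carried both kinds. Both were chosen after their values were seen. The summed level of 10 endothelial markers, Erg and Fli1 among them, was 1516 and 2476 CPM in dKO with cytokines, 1986 and 3620 CPM in dKO without, 5584 and 5280 CPM in WT with and 9768 and 9541 CPM in WT without. That of 7 liver sinusoidal endothelial markers was 37.9 and 510, 62.6 and 685, 1718 and 1699, and 1954 and 2199 CPM in the same libraries. That of 8 cholangiocyte and mesothelium markers was 155 and 265, 39.3 and 91.5, 3.35 and 3.69, and 3.21 and 3.03 CPM. That of 10 stellate cell and fibroblast markers was 19164 and 15223, 17797 and 13379, 10842 and 9956, and 9202 and 9323 CPM in the same libraries. Most of that sum was Dcn, at 14777 and 13313, 13420.1 and 11692, 10570.2 and 9758 and 9019 and 9169 CPM in that order, and without it the sum was 4387 and 1910.3, 4377 and 1687, 272 and 198, and 183 and 154 CPM. Of 9 Kupffer cell and leukocyte markers, Clec4f and Vsig4 had 0 counts in all 8 libraries, and of 9 hepatocyte markers Ttr, Serpina1a and Cyp2e1 had 0. In bulk RNA, a change in the number of cells of a type and a change in RNA per cell cannot be told apart.

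Mt1 and Mt2 encode small cysteine-rich proteins that bind zinc and copper and take up oxidants. Both were several-fold higher in dKO than in WT cells, with or without cytokines. Mt1 (ENSMUSG00000031765, chromosome 8, 94179082 to 94180327, plus strand, GRCm38) stood at 619 and 375 CPM in dKO with cytokines and 532 and 325 CPM in dKO without, against 90.4 and 136 CPM in WT with and 50.3 and 83.0 CPM in WT without. Every dKO library lay above every WT library, and the dKO replicate 1 libraries were the highest. Without cytokines Mt1 averaged 428 ± 147 CPM in dKO and 66.7 ± 23.1 CPM in WT (SD, n = 2 each), a 6.43-fold difference (log2 fold change 2.68, SE 0.42, adjusted p = 0.0111). With cytokines it averaged 497 ± 172 CPM in dKO and 113 ± 31.9 CPM in WT, 4.40-fold higher in dKO (log2 fold change 2.14, SE 0.42, adjusted p = 0.0133). The first call was lost without WT replicate 1 (adjusted p = 0.0738), and the second without dKO replicate 1 with cytokines (0.0607) or WT replicate 1 with cytokines (0.0826).

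Mt2 (ENSMUSG00000031762, chromosome 8, 94172664 to 94173568, plus strand) lies next to Mt1 and had fewer counts than Mt1. It stood at 17.1 and 10.2 CPM in dKO with cytokines and 10.6 and 6.52 CPM in dKO without, against 2.51 and 3.22 CPM in WT with and 0.590 and 0.809 CPM in WT without. The 4 groups did not overlap, except that dKO replicate 2 with cytokines fell below dKO replicate 1 without them. Without cytokines it averaged 8.55 ± 2.87 CPM in dKO and 0.699 ± 0.154 CPM in WT, 12.2-fold higher in dKO (log2 fold change 3.60, SE 0.41, adjusted p = 0.00415). With cytokines the levels were 13.6 ± 4.89 CPM in dKO and 2.86 ± 0.499 CPM in WT, 4.75-fold apart (log2 fold change 2.24, SE 0.37, adjusted p = 0.0073). The last call was lost without WT replicate 1 with cytokines (adjusted p = 0.0555). The WT libraries without cytokines held 16 and 24 counts of Mt2, and 73.5% of its exon bases are overlapped by an antisense gene, Gm45774, which had 87 counts over all libraries. Because the strand setting is not stated, the Mt2 values are uncertain to that extent, also when set beside those of Mt1. The longest stretch of letters that Mt1 and Mt2 transcripts share is 20 bases.

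Without cytokines, Mt1 and Mt2 were the 2 of the 8 genes higher in dKO by edgeR, and none was lower. Of all tested genes, 13.4% were called higher and 9.68% lower in that comparison. The other 6 had fitted log2 fold changes between -0.46 (Txnrd1) and 0.26 (Sod2), with adjusted p from 0.199 (Sod2) to 0.989 (Srxn1). Hmox1 stood at 136 and 159 CPM in dKO and 197 and 208 CPM in WT without cytokines (log2 fold change -0.46, SE 0.46, adjusted p = 0.49), and passed as lower when either dKO library with cytokines was left out of the fit (adjusted p = 0.0381 and 0.0362). Without both dKO replicate 2 libraries, dKO was replicate 1 alone, at 136 CPM for Hmox1 and 128 CPM for Txnrd1. Both lay below the 2 WT libraries.

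The ratio with over without cytokines was smaller in dKO than in WT for both metallothioneins, and the test of that difference passed only with the replicate number as a block. In WT cells Mt2 was 4.10-fold higher with cytokines (log2 fold change 2.02, SE 0.40, adjusted p = 0.0206), and in dKO cells it was 1.59-fold higher without passing (log2 fold change 0.67, SE 0.35, adjusted p = 0.311). The WT call was lost when any of the 4 WT libraries was left out (adjusted p from 0.0731 to 0.132). Mt1 had a log2 fold change of 0.76 in WT (SE 0.40, adjusted p = 0.248) and 0.21 in dKO (SE 0.40, adjusted p = 0.803). Within numbered pairs the Mt1 ratio with over without cytokines was 1.16 and 1.16 in dKO and 1.80 and 1.63 in WT, and that of Mt2 was 1.61 and 1.56 in dKO and 4.25 and 3.98 in WT. The pairs of a genotype thus moved by nearly the same factor. With the replicate number as a block within each genotype, Mt1 in WT (log2 fold change 0.78, SE 0.09, adjusted p = 0.000312) and Mt2 in dKO (log2 fold change 0.66, SE 0.16, adjusted p = 0.0198) passed as higher. In that fit the response of dKO minus that of WT was -0.56 for Mt1 (SE 0.12, adjusted p = 0.0356) and -1.36 for Mt2 (SE 0.29, adjusted p = 0.0337) on the log2 scale, smaller in dKO. Of all tested genes, 2.8% had a smaller and 3.24% a larger response in dKO by that fit. Without the block the differences were -0.55 (adjusted p = 0.793) and -1.35 (adjusted p = 0.44).

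**Figure D2:**
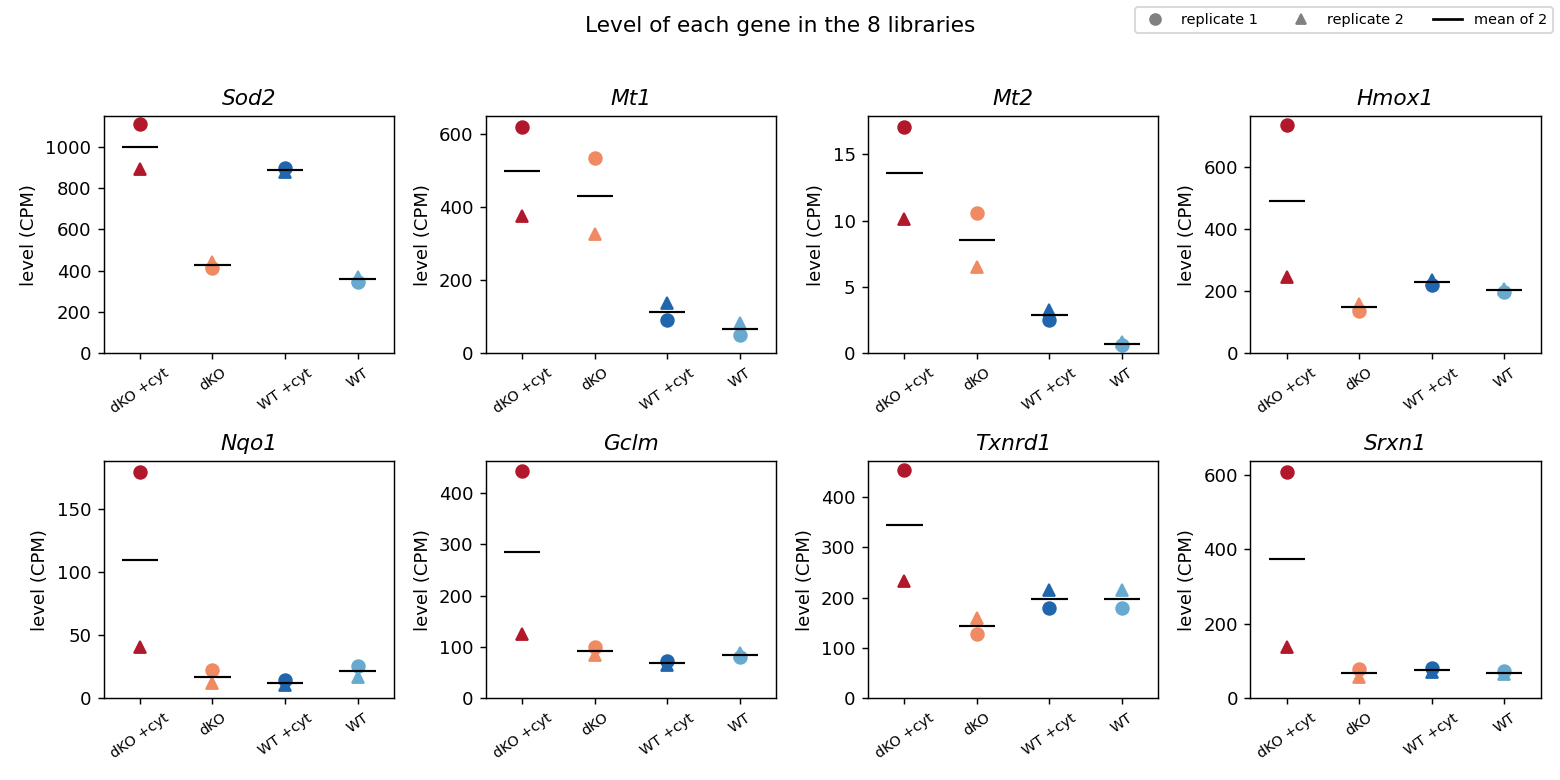
Level of each of the 8 genes in CPM (y axis, from 0) in dKO with cytokines, dKO, WT with cytokines and WT, with circles for replicate 1, triangles for replicate 2 and a bar at the mean of 2. Mt1 and Mt2 are above WT in every dKO library, Sod2 is high in the 4 libraries with cytokines, and Nqo1, Gclm and Srxn1 are highest in dKO replicate 1 with cytokines (179, 443 and 609 CPM).

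Among genes of metal sensing and zinc transport, 13 of 16 listed were tested. Relative to WT, 4 were higher and 3 lower in dKO with cytokines, beside 18.6% and 15.4% of all tested genes. Without cytokines 3 were higher and 1 lower, beside 13.4% and 9.68%. The zinc importer genes Slc39a14 and Slc39a6 were among the higher ones. Slc39a14 stood at 233 and 141 CPM in dKO and 31.1 and 37.5 CPM in WT without cytokines (log2 fold change 2.45, SE 0.27, adjusted p = 0.00426). Slc39a6 stood at 143 and 106 CPM in dKO and 39.5 and 42.7 CPM in WT without cytokines (log2 fold change 1.60, SE 0.17, adjusted p = 0.00371) and was 1.99-fold higher in dKO with them (adjusted p = 0.00822). Mtf1, the gene of the zinc sensor itself, was lower in dKO, at 24.3 and 35.5 CPM in dKO and 50.7 and 59.0 CPM in WT without cytokines (log2 fold change -0.87, SE 0.21, adjusted p = 0.0286), and at 25.4 and 32.1 CPM in dKO and 62.1 and 68.5 CPM in WT with them (log2 fold change -1.18, SE 0.21, adjusted p = 0.00861). With cytokines, 4 of the 13 were higher and 1 lower in WT, beside 9.72% and 7.69% of all tested genes. In dKO 0 of the 13 passed by edgeR, beside 5.55% of all tested genes, and 1 passed in DESeq2. There, 3 had an unadjusted edgeR p under 0.05, beside 3672 of all 15698. With the replicate number as a block within genotype, the counts of the 13 were 2 higher and 1 lower in dKO and 7 higher and 1 lower in WT. In dKO, Slc39a14 (log2 fold change 1.14, SE 0.10, adjusted p = 0.000249) passed as higher and Slc39a8 (log2 fold change -0.64, SE 0.15, adjusted p = 0.0157) as lower. By that fit 12.7% of all tested genes were higher and 11.3% lower in the dKO response, and 19.3% higher and 18.5% lower in the WT response. In WT, Slc39a14 rose to 216 and 220.4 CPM with cytokines (log2 fold change 2.67, SE 0.28, adjusted p = 0.00375) and Slc39a6 to 69.0 and 74.0 CPM (log2 fold change 0.80, SE 0.17, adjusted p = 0.0256). Slc39a8, another zinc importer gene, was lower in WT with cytokines (4.89 and 5.06 CPM, against 17.5 and 13.2 CPM without, log2 fold change -1.63, SE 0.22, adjusted p = 0.00734), and with cytokines it was 2.41-fold higher in dKO than in WT (adjusted p = 0.00886). The list's median log2 fold change in dKO against WT was 0.27 without cytokines (all tested genes 0.02) and 0.09 with them (all tested genes 0.01), and that of the response was 0.05 in dKO and 0.40 in WT (all tested genes -0.01 in each). Calls in this list depended on single libraries. The total of 4 without cytokines was 2 when dKO replicate 1 or any WT library was left out. The total of 7 with cytokines was 4 without dKO replicate 1 with cytokines or either WT library lacking them, 1 without WT replicate 1 with cytokines and 3 without WT replicate 2 with cytokines. Leaving out a single WT library reduced the 5 calls of the WT response to 1 to 2.

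The levels of metallothionein transcripts moved beside those of other cell types' markers. Of 9 hepatocyte markers 4 were tested, and 3 of them (Ahsg, Hp and Trf) were higher in dKO, while Alb had under 0.1 CPM in every library. The summed hepatocyte list was 201 and 166 CPM in dKO with cytokines, 309 and 187 CPM in dKO without, 3.66 and 4.79 CPM in WT with and 5.72 and 6.33 CPM in WT without. Of 10 stellate cell and fibroblast markers 9 were tested, and 6 were higher in dKO than in WT without cytokines. Their part in the metallothionein result was not tested.

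Sod2 (ENSMUSG00000006818, chromosome 17, 13006846 to 13040063, plus strand) rose with cytokines in both genotypes. It stood at 1112 and 892 CPM in dKO with cytokines and 412 and 443 CPM in dKO without, against 897 and 877 CPM in WT with and 344 and 371 CPM in WT without. All 4 libraries with cytokines lay above all 4 without, and the genotypes overlapped in the presence of cytokines. The mean was 1002 ± 155 CPM with and 428 ± 22.2 CPM without cytokines in dKO, 2.34-fold higher (log2 fold change 1.23, SE 0.14, adjusted p = 0.0103). In WT it was 887 ± 14.2 CPM with and 357 ± 19.4 CPM without, 2.48-fold higher (log2 fold change 1.31, SE 0.14, adjusted p = 0.00363). Between the responses the log2 difference was -0.08 (SE 0.19, adjusted p = 0.927), dKO minus WT. In dKO the call was lost without dKO replicate 1 lacking cytokines (adjusted p = 0.0539) and in a fit of the dKO libraries alone (0.128). Sod2 and Mt2 were the 2 of the 8 genes higher with cytokines in WT, where 9.72% of all tested genes were higher and 7.69% lower. With the block within genotype Mt1 made it 3 of 8, against 19.3% of all genes. Sod2 was the only 1 of the 8 to pass in dKO by edgeR, where 3.5% of all tested genes were higher and 2.06% lower. Against WT, dKO had a log2 fold change of 0.18 with cytokines (adjusted p = 0.334) and 0.26 without (adjusted p = 0.199). Without both dKO replicate 2 libraries, dKO with cytokines was replicate 1 alone, at 1112 CPM against 897 and 877 CPM in WT.

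The 5 classical NRF2 targets stood highest in dKO cells given cytokines. In the edgeR fit without a block, none of them passed in the response to cytokines in either genotype. Hmox1 (ENSMUSG00000005413, chromosome 8, 75093621 to 75100589, plus strand) encodes heme oxygenase 1, which breaks down heme. It stood at 735 and 247 CPM in dKO with cytokines and 136 and 159 CPM in dKO without, against 219 and 237 CPM in WT with and 197 and 208 CPM in WT without. Replicate 1 of dKO with cytokines was far above every other library, and replicate 2 lay just above the WT libraries. The dKO response was a log2 fold change of 1.74 (SE 0.47, adjusted p = 0.0932), and with cytokines dKO over WT was 1.11 (SE 0.46, adjusted p = 0.11).

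Nqo1 (ENSMUSG00000003849, chromosome 8, 107388225 to 107403206, minus strand) encodes a quinone reductase. It stood at 179 and 40.3 CPM in dKO with cytokines and 22.1 and 11.9 CPM in dKO without, against 14.1 and 10.2 CPM in WT with and 25.9 and 16.8 CPM in WT without. Both dKO libraries with cytokines were above the other 6, and in WT both libraries with cytokines were below both without. With cytokines it averaged 109.9 ± 98.4 CPM in dKO and 12.2 ± 2.82 CPM in WT, 9.04-fold higher in dKO (log2 fold change 3.18, SE 0.76, adjusted p = 0.025). The response of dKO to cytokines had a log2 fold change of 2.70 (SE 0.74, adjusted p = 0.0993). With the block within genotype it passed (log2 fold change 2.44, SE 0.34, adjusted p = 0.0154).

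Gclm (ENSMUSG00000028124, chromosome 3, 122245557 to 122270732, plus strand) encodes the modifier subunit of the ligase that makes the first step of glutathione synthesis. It stood at 443 and 125 CPM in dKO with cytokines and 99.95 and 83.4 CPM in dKO without, against 72.0 and 65.3 CPM in WT with and 80.4 and 88.6 CPM in WT without. The dKO libraries with cytokines lay above the rest and the WT libraries with cytokines below it. The mean with cytokines was 284 ± 225 CPM in dKO and 68.7 ± 4.72 CPM in WT, a 4.14-fold difference (log2 fold change 2.05, SE 0.55, adjusted p = 0.0345). In dKO the response was 1.63 on the log2 scale (SE 0.54, adjusted p = 0.145). In WT it was -0.30 (adjusted p = 0.744), and it passed as lower when the WT libraries were fitted alone (0.0494) or without both dKO replicate 2 libraries (0.0479).

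Srxn1 (ENSMUSG00000032802, chromosome 2, 152105516 to 152111376, plus strand) encodes sulfiredoxin, which repairs overoxidised peroxiredoxins. It stood at 609 and 138 CPM in dKO with cytokines and 78.0 and 58.1 CPM in dKO without, against 80.9 and 69.6 CPM in WT with and 72.2 and 65.2 CPM in WT without. The 6 libraries other than dKO with cytokines spanned 58.1 to 80.9 CPM. With cytokines the mean was 374 ± 333 CPM in dKO and 75.2 ± 8.02 CPM in WT, 4.96-fold higher in dKO (log2 fold change 2.31, SE 0.65, adjusted p = 0.04). The log2 fold change of the dKO response was 2.46 (SE 0.65, adjusted p = 0.0927).

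Txnrd1 (ENSMUSG00000020250, chromosome 10, 82833951 to 82897712, plus strand) encodes the cytosolic thioredoxin reductase, which keeps thioredoxin reduced. It stood at 455 and 233 CPM in dKO with cytokines and 128 and 159 CPM in dKO without, against 179.7 and 214 CPM in WT with and 179 and 215 CPM in WT without. Its WT levels were nearly the same with and without cytokines, and dKO replicate 2 with cytokines was only a little above WT replicate 2. The dKO response was 1.26 on the log2 scale (SE 0.32, adjusted p = 0.0783), and dKO over WT with cytokines was 0.80 (SE 0.32, adjusted p = 0.093).

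Between dKO and WT cells that both had cytokines, 5 of the 8 genes were called higher in dKO by edgeR (Mt1, Mt2, Nqo1, Gclm and Srxn1) and 0 lower, where 18.6% of all tested genes were higher and 15.4% lower. DESeq2 called 7 of 8 higher (18.2% of its tested genes), all but Sod2, with adjusted p = 0.0257 for Hmox1 and 0.0364 for Txnrd1. Without both dKO replicate 2 libraries, each dKO group was replicate 1 alone. With cytokines, that library was above dKO replicate 2 for each of the 8 genes. Without WT replicate 1 with cytokines 0 of 8 passed, and without WT replicate 2 with cytokines Mt1 and Mt2 did. Nqo1 lost its call also without dKO replicate 1 with cytokines (adjusted p = 0.0619), while Gclm and Srxn1 lost theirs also when any library without cytokines was left out (adjusted p from 0.0565 to 0.0632 for Gclm and 0.0618 to 0.0714 for Srxn1). With no filter on low counts, or with the 4 libraries compared fitted alone, Nqo1, Gclm and Srxn1 did not pass.

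For the response of dKO cells to cytokines, the 5 NRF2 targets missed the threshold in edgeR and passed it in DESeq2, which called 6 of the 8 genes higher (these 5 and Sod2), against 6.85% of its tested genes. The DESeq2 adjusted p was 0.000107 for Nqo1, 6.64e-05 for Srxn1, 0.000538 for Hmox1, 0.00117 for Txnrd1 and 0.00562 for Gclm. In edgeR the same 6 passed without dKO replicate 2 with cytokines, and without both dKO replicate 2 libraries, where 5.03% of all genes were called higher. With the block within genotype Sod2, Mt2 and Nqo1 passed, against 12.7% of all genes.

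**Figure D3:**
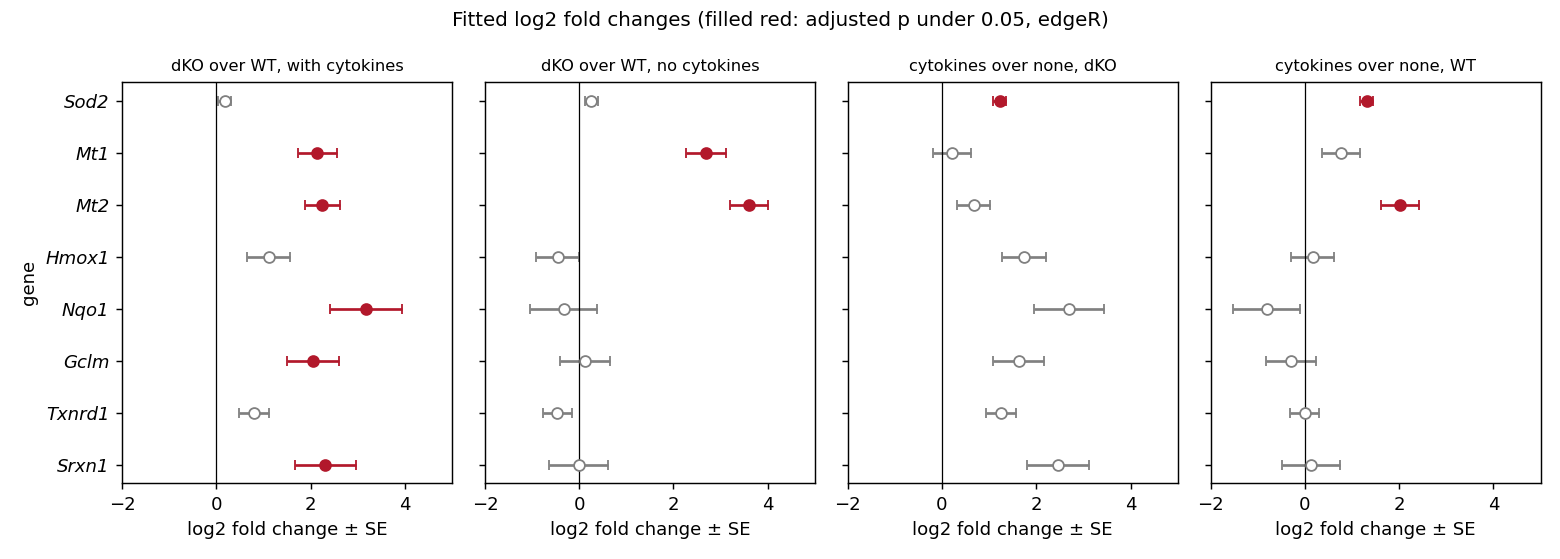
Fitted log2 fold change of the 8 genes (x axis, with SE bars, edgeR) in 4 comparisons, dKO over WT with and without cytokines and cytokines over none in dKO and WT. Filled red points have an adjusted p under 0.05. Mt1 and Mt2 are to the right in both comparisons of dKO with WT, Sod2 in both cytokine responses, and the points for Hmox1 to Srxn1 in the dKO response lie between 1.26 and 2.70 without passing.

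The size of the NRF2-target response differed between the dKO replicates. The ratio with over without cytokines in dKO replicates 1 and 2 was 7.81 and 2.38 for Srxn1, 8.13 and 3.40 for Nqo1, 5.41 and 1.56 for Hmox1, 4.43 and 1.50 for Gclm, and 3.57 and 1.46 for Txnrd1. All 10 ratios were above 1, and replicate 1 had the larger ratio for each gene. In WT replicates 1 and 2 the ratios ran from 0.547 and 0.605 (Nqo1) to 1.11 and 1.14 (Hmox1). Among dKO libraries with cytokines, replicate 1 exceeded replicate 2 more than 2-fold for Nqo1 (4.45), Srxn1 (4.41), Gclm (3.54) and Hmox1 (2.98), which made 4 of the 8 genes, and 1.95-fold for Txnrd1. Of the 9395 genes with at least 10 CPM in that group, 1.78% exceeded it that far. The NRF2 target list named below had 8 of 25. The Erg and Fli1 levels of the same pair of libraries were 34.7 and 90.1 CPM and 12.3 and 35.2 CPM, lower in replicate 1, and Xist was 1.32 and 171 CPM. Their part in the result was not tested.

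**Figure D4:**
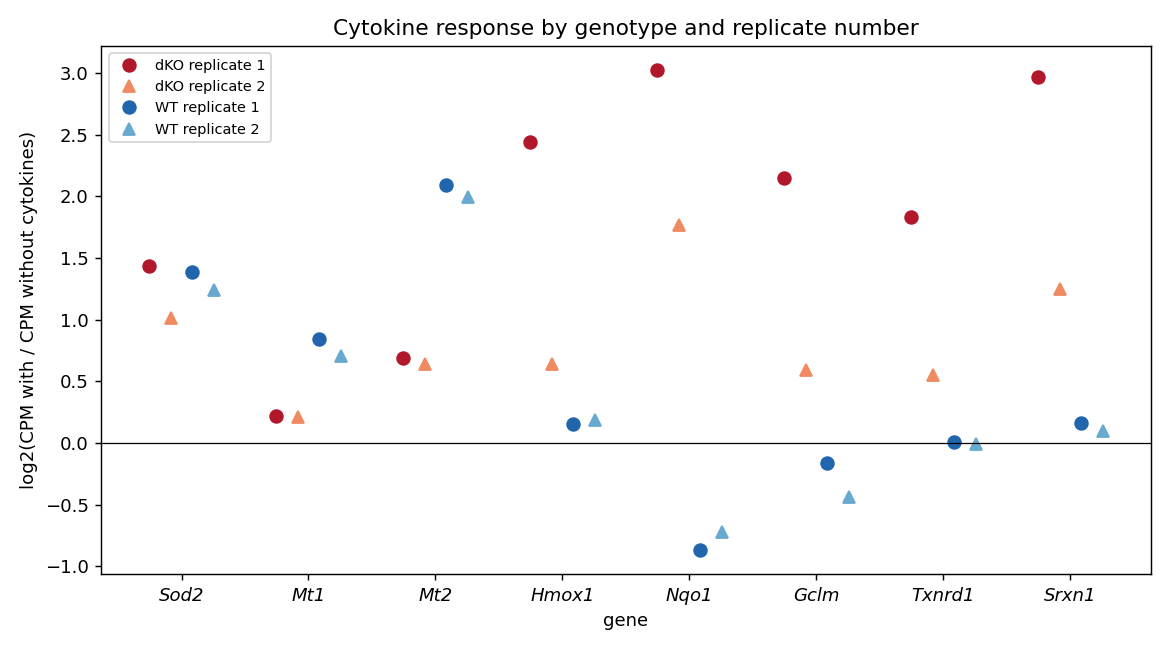
Log2 ratio of CPM with cytokines over CPM without, within each replicate number, for the 8 genes in dKO (red and orange) and WT (blue). For Nqo1 and Gclm both dKO points lie above 0 and both WT points below it, while for Mt1 and Mt2 the WT points lie above the dKO points.

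Whether the response differed between genotypes was tested as the difference of the cytokine responses, dKO minus WT. The log2 difference was 3.51 (SE 1.02) for Nqo1, 2.33 (SE 0.89) for Srxn1, 1.93 (SE 0.75) for Gclm, 1.57 (SE 0.65) for Hmox1 and 1.26 (SE 0.44) for Txnrd1. By edgeR 0 of the 8 genes passed, as did 0% of all tested genes, and 5 of the 8 had an unadjusted p under 0.05 (Nqo1, Txnrd1, Mt2, Srxn1 and Gclm), as had 1684 of all 15698. DESeq2 called Nqo1 (adjusted p = 0.00184), against 1.1% of its tested genes called larger in dKO. The fit with the block within genotype called Nqo1 as well (log2 difference 3.24, SE 0.48, adjusted p = 0.0479). Without both dKO replicate 2 libraries, Gclm, Hmox1, Srxn1 and Txnrd1 passed with a larger response in dKO, against 0.683% of all genes. Without dKO replicate 2 with cytokines alone, Gclm, Hmox1 and Srxn1 did.

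Other NRF2 target genes were counted from a list of 26 that holds none of the 8, of which 25 were tested. In dKO given cytokines, 6 were higher and 0 lower than in dKO without, beside 3.5% and 2.06% of all tested genes. In WT 2 were higher and 5 lower with cytokines, beside 9.72% and 7.69% of all tested genes. The median log2 fold change of the list was 0.77 in dKO and -0.24 in WT, and that of all tested genes was -0.01 in each. Slc7a11, the cystine importer, rose in both genotypes, to 269 and 135 CPM with, against 8.26 and 15.0 CPM without cytokines in dKO (log2 fold change 4.11, SE 0.44, adjusted p = 0.0114), and to 86.8 and 88.4 CPM with, against 7.45 and 6.16 CPM without in WT (log2 fold change 3.69, SE 0.43, adjusted p = 0.00552). The glutathione conjugate pump gene Abcc1 stood at 585 and 331 CPM with and 114 and 117 CPM without cytokines in dKO (log2 fold change 1.99, SE 0.27, adjusted p = 0.0187), and at 256 and 207 CPM with and 101 and 87.3 CPM without in WT, where it was higher as well (log2 fold change 1.30, SE 0.27, adjusted p = 0.0241). Pgd, of the pentose phosphate pathway, stood at 336 and 214 CPM with and 121 and 142 CPM without in dKO (log2 fold change 1.07, SE 0.22, adjusted p = 0.0427). In WT, Osgin1 fell to 3.04 and 3.22 CPM with cytokines, against 16.1 and 18.8 CPM without (log2 fold change -2.48, SE 0.41, adjusted p = 0.0127), and Ephx1, the microsomal epoxide hydrolase, to 42.6 and 44.3 CPM, against 129 and 133 CPM (log2 fold change -1.59, SE 0.18, adjusted p = 0.00432). The dKO count was 0 higher and 0 lower without dKO replicate 1, 15 higher and 0 lower without dKO replicate 2 with cytokines, and 1 to 3 in all when a single other library was left out. DESeq2 called 12 higher, beside 6.85% of its tested genes, and 1 lower. With the block within genotype, 12.7% of all tested genes were higher and 11.3% lower in dKO, and 19.3% and 18.5% in WT. For the list that fit called 14 higher and 2 lower in dKO and 4 higher and 8 lower in WT. The 7 calls of the WT response became 1 to 2 when a single WT library was left out and 11 without dKO replicate 1 with cytokines.

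With cytokines, 12 of the 25 were higher and 0 lower in dKO than in WT (median log2 fold change 0.78, all tested genes 0.01). The shares over all tested genes were 18.6% higher and 15.4% lower. The glutathione transferase gene Gsta4 had 48.6 and 2.52 CPM in dKO and 0.749 and 0.785 CPM in WT with cytokines (log2 fold change 5.05, SE 1.42, adjusted p = 0.0403), so that replicate 1 carried most of its mean. The carbonyl reductase gene Cbr3 had 46.0 and 18.7 CPM in dKO and 5.91 and 6.08 CPM in WT (log2 fold change 2.43, SE 0.41, adjusted p = 0.00822), and Blvrb, a biliverdin reductase gene, 66.9 and 32.0 CPM in dKO and 12.3 and 9.89 CPM in WT (log2 fold change 2.15, SE 0.34, adjusted p = 0.0069). The count was 4 without WT replicate 1 with cytokines, 5 without WT replicate 2 with cytokines and 21 without dKO replicate 2 with cytokines. Without cytokines 1 was higher and 2 lower in dKO (median 0.11, all tested genes 0.02), beside 13.4% and 9.68% of all tested genes. Fth1, the ferritin heavy chain, was higher at 7147 and 4511 CPM in dKO and 1478 and 2302 CPM in WT (log2 fold change 1.63, SE 0.45, adjusted p = 0.0474), and has near-identical pseudogenes that can take up reads. Taldo1, of the pentose phosphate pathway, was lower at 118 and 143 CPM in dKO and 229 and 274 CPM in WT (log2 fold change -0.95, SE 0.25, adjusted p = 0.0424), as was the thioredoxin gene Txn1 at 133 and 133 CPM in dKO and 233 and 207 CPM in WT (log2 fold change -0.73, SE 0.18, adjusted p = 0.0323). These 3 calls were all lost when any of the dKO or WT libraries without cytokines, or any WT library with cytokines, was left out, and the total was 9 to 10 without a dKO library with cytokines. For the difference of the responses, edgeR called 0 of the 25, beside 0% of all tested genes. DESeq2 called 5, all larger in dKO, beside 1.1% of its tested genes. The fit with the block called 6 higher and 0 lower, beside 3.24% and 2.8% of all tested genes. Before adjustment, 10 of the 25 had an edgeR p under 0.05, as had 1684 of all 15698.

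**Figure D5:**
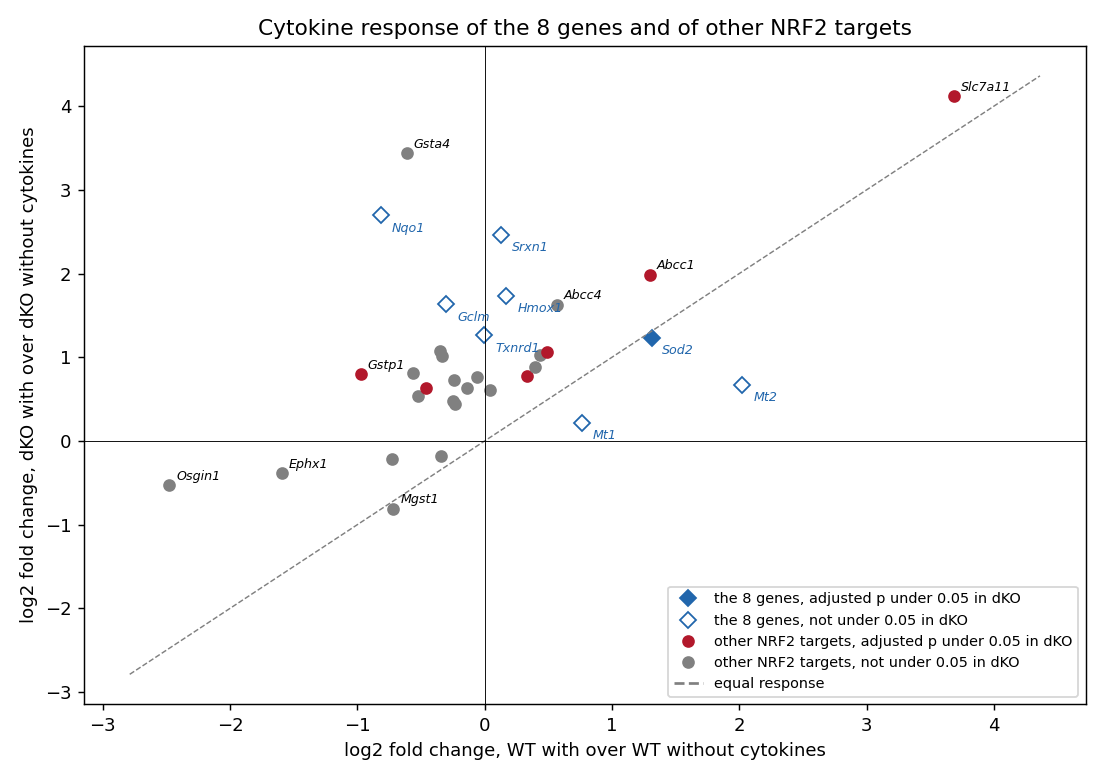
Log2 fold change with cytokines over without in dKO (y axis) against WT (x axis) for the 8 genes (diamonds, filled where the dKO adjusted p is under 0.05) and 25 other NRF2 targets (circles, red where it is under 0.05). The dashed line marks equal responses. Slc7a11 and Sod2 lie near the line, Abcc1 lies above it, and Gsta4, Nqo1 and Srxn1 lie far above it.

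The regulators themselves were measured too, with 11 of 11 tested. Nfe2l2, which encodes NRF2, stood at 607 and 491 CPM in dKO with cytokines and 291 and 330.1 CPM in dKO without, against 371 and 378 CPM in WT with and 356 and 347 CPM in WT without. Both dKO libraries with cytokines lay above the other 6. It was 1.77-fold higher with cytokines in dKO (log2 fold change 0.82, SE 0.13, adjusted p = 0.0238) and, with cytokines, 1.47-fold higher in dKO than in WT (log2 fold change 0.55, SE 0.13, adjusted p = 0.0212). In WT the response was 0.09 on the log2 scale (adjusted p = 0.67), and the difference of the responses was 0.73 (SE 0.19, adjusted p = 0.26; with the block within genotype 0.72, adjusted p = 0.0497). Keap1 stood at 94.4 and 70.8 CPM in dKO with cytokines, 74.3 and 67.9 CPM in dKO without, 96.4 and 78.7 CPM in WT with and 72.4 and 73.6 CPM in WT without, and passed in no comparison. Bach1 stood at 131 and 141 and 94.8 and 106 CPM in dKO with and without cytokines and at 139 and 131 and 106 and 97.4 CPM in WT with and without. It was higher with cytokines in WT (log2 fold change 0.41, SE 0.10, adjusted p = 0.0381) and did not pass in dKO (log2 fold change 0.44, SE 0.10, adjusted p = 0.0593), where it passed as higher with the block within genotype (log2 fold change 0.44, SE 0.08, adjusted p = 0.00523).

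Maff, a small MAF gene, was 1.84-fold higher with cytokines in WT (adjusted p = 0.0254), and passed as higher in dKO with the block (log2 fold change 0.60, SE 0.08, adjusted p = 0.00191). With cytokines, Mafg, another of these partners of NRF2, was 1.63-fold higher in dKO than in WT (adjusted p = 0.0232), and Btrc, the substrate receptor of a ubiquitin ligase, 1.32-fold higher (adjusted p = 0.0477). In all, 3 regulators were higher and 1 lower in dKO against WT with cytokines, beside 18.6% and 15.4% of all tested genes. Without cytokines 0 passed, beside 23.1% of all tested genes, and 2 were lower in DESeq2. There, 3 had an unadjusted p under 0.05, beside 6284 of all 15698. In the response to cytokines 1 was higher in dKO and 2 in WT, beside 3.5% and 9.72% of all tested genes. With the block, 12.7% of all tested genes were higher and 11.3% lower in the dKO response, and 19.3% and 18.5% in the WT response. In that fit the regulators counted 6 higher and 1 lower in dKO and 3 higher and 1 lower in WT. The median log2 fold change was 0.13 in dKO against WT with cytokines and -0.03 without, 0.44 with cytokines in dKO and 0.20 in WT, where the medians of all tested genes were within 0.02 of 0. The single dKO call was lost when either dKO replicate 1 library or any WT library was left out (and 4 passed without dKO replicate 2 with cytokines), and the 2 WT calls when any WT library was. The 4 calls with cytokines fell to 0 without dKO replicate 1 or either WT library with cytokines, and to 2 without either WT library lacking them.

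Enzymes that share the work of the 8 genes, 20 that handle superoxide, peroxide or thioredoxin, were all tested. Compared with WT, dKO had 9 higher and 3 lower with cytokines and 6 higher and 1 lower without (median log2 fold changes 0.54 and 0.29, all tested genes 0.01 and 0.02). The shares over all tested genes were 18.6% higher and 15.4% lower with cytokines, and 13.4% and 9.68% without. The secreted superoxide dismutase gene Sod3 stood at 80.4 and 76.2 CPM in dKO and 3.70 and 6.20 CPM in WT with cytokines (log2 fold change 3.98, SE 0.36, adjusted p = 0.00212) and at 101 and 66.4 CPM in dKO and 8.49 and 13.0 CPM in WT without (log2 fold change 2.96, SE 0.34, adjusted p = 0.00496). Its response to cytokines did not pass in dKO (log2 fold change -0.10, SE 0.32, adjusted p = 0.897) or in WT (log2 fold change -1.11, SE 0.34, adjusted p = 0.0724), but with the block within genotype it passed as lower in WT (log2 fold change -1.12, SE 0.16, adjusted p = 0.00133). The secreted glutathione peroxidase gene Gpx3 stood at 215 and 493 CPM in dKO and 44.8 and 43.6 CPM in WT with cytokines (SE of the log2 fold change 0.58, adjusted p = 0.0138) and at 273 and 725 CPM in dKO and 72.8 and 59.7 CPM in WT without (log2 fold change 2.91, SE 0.58, adjusted p = 0.0207). The glutaredoxin gene Glrx was 2.15-fold higher in dKO than in WT without cytokines (adjusted p = 0.00907). With cytokines, Gpx8, a peroxidase gene of the endoplasmic reticulum, was 3.64-fold higher in dKO than in WT (adjusted p = 0.00127). In WT, 1 was higher and 4 lower with cytokines (median -0.16, all tested genes -0.01), beside 9.72% and 7.69% of all tested genes. Gpx8 (log2 fold change -1.13, SE 0.14, adjusted p = 0.00571) and Txnip, an inhibitor of thioredoxin (log2 fold change -1.07, SE 0.14, adjusted p = 0.00611), fell, and the methionine sulfoxide reductase gene Msra rose (log2 fold change 0.87, SE 0.17, adjusted p = 0.0211). In dKO 0 of the 20 passed by edgeR with cytokines, beside 5.55% of all tested genes, and 2 were higher and 1 lower in DESeq2. An unadjusted edgeR p under 0.05 was seen for 5, beside 3672 of all 15698. The median of the list was -0.01 in the dKO response, as over all tested genes. With the block, 12.7% of all tested genes were higher and 11.3% lower in the dKO response, and 19.3% and 18.5% in the WT response. For the list that fit called 4 higher and 3 lower in dKO and 4 higher and 9 lower in WT. The total of 7 without cytokines was 4 without dKO replicate 1 and 1 without WT replicate 1. That of 12 with cytokines was 7 without dKO replicate 1 with cytokines and 5 without either WT library with cytokines, and that of 5 in the WT response was 1 to 2 when a single WT library was left out.

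The order of levels per length was taken from CPM per kilobase of exon, with the exons of all annotated transcripts merged. The merged length was 1246 bases for Mt1, which is its whole gene span, and 10008 bases for Sod2. The order thus depends on which transcripts are annotated. In dKO with cytokines it ran Mt1 399, Hmox1 280.4, Srxn1 132, Sod2 100.1, Nqo1 70.8, Txnrd1 48.5, Gclm 45.2 and Mt2 23.1 CPM per kilobase. In WT with cytokines it ran Hmox1 130.1, Mt1 90.7, Sod2 88.6, Txnrd1 27.8, Srxn1 26.7, Gclm 10.9, Nqo1 7.83 and Mt2 4.87. Without cytokines the highest was Mt1 in dKO (344) and Hmox1 in WT (116), and in WT the lowest was Mt2 (1.19). Mt2 was divided by its full exon length, of which 73.5% is overlapped by an antisense gene, so its place is uncertain. Each value is the mean of 2 libraries. In dKO with cytokines the libraries of every pair of neighbours in the order overlapped. In WT with cytokines they overlapped only for Mt1 with Sod2 and Txnrd1 with Srxn1.

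The genes whose log2 CPM followed each of the 8 most closely over the 8 libraries are given as a description, without p, since the 8 libraries share 4 groups. Among 10207 genes with at least 10 CPM in a group, Mt1 was closest to Ephx2 (r = 0.999), the soluble epoxide hydrolase gene, and Slfn4 (0.995). Mt2 was closest to Arg2, mitochondrial arginase, and to the zinc importer gene Slc39a6 (0.997 each), and Mt1 and Mt2 had r = 0.973 with each other. Sod2 was closest to Tagln2 (0.994) and Ckap4 (0.993). Hmox1 was closest to Txnrd1 (0.978) and to Sqstm1 (0.974), which encodes an autophagy adaptor that binds KEAP1. Nqo1 was closest to Gclm (0.961) and Fads1 (0.956), Gclm to Layn (0.987) and Gsta4 (0.985), Txnrd1 to Hmox1 and then Metap1 (0.940), and Srxn1 to Mafg (0.968) and Ggct (0.967).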

How the data were processed

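The deposited values are whole-number counts for each Ensembl gene in 8 libraries, with no sign of normalization by the authors. The tools named are STAR 2.7.6a and FastQC 0.11.5, with GRCm38 as build, per the submitters' processing notes, which give no roles. What counted the reads, on which annotation and strand, is not given in the sources used here, and per the labels' protocols the kit was unstranded or stranded, so overlapping antisense genes (Mt2) and near-identical copies (Fth1) are uncertain. Symbols were found for 52403 of 52636 identifiers. Gene coordinates are those of GENCODE M21 (GRCm38).

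The counts were fitted with edgeR 4.0.16 under R 4.3.3 (TMM scaling, filter by group, robust quasi-likelihood fit of the 4 groups over 8 libraries, 4 residual degrees of freedom, biological coefficient of variation 24.3%), with two-sided tests and Benjamini-Hochberg adjustment over 15698 genes in each of 5 comparisons at 0.05. CPM use TMM-scaled library sizes, and fold changes in the text are ratios of mean CPM beside the fitted log2 values. A fold against a group with 0 counts uses a floor of 3 counts over the group, for counting error only. The steps were tested on simulated data. Alternatives were DESeq2 1.42.0, RLE and upper-quartile scaling, no filter, the compared groups alone, replicate blocks, each library left out, and both dKO replicate 2 libraries left out. A library left out leaves 1 in its group. Without both dKO replicate 2 libraries, each dKO group is 1 library. A group of 1 library adds nothing to the estimate of spread, which then comes from the other groups. The block within genotype was used because libraries of equal number deviated together within a genotype (r = 0.829 in dKO and 0.637 in WT over 10208 genes). Across genotypes the 4 pairs of groups had r = 0.0961, 0.0972, 0.177 and 0.205. This rests on the data, beside a shared stem in the sample descriptions. The fit with this block leaves fewer residual degrees of freedom than the 4 of the main fit.

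The 8 genes, the 6 lists (NRF2 targets, NRF2 regulators, peroxide and superoxide enzymes, metal and zinc genes, iron and heme genes, sources of reactive oxygen and nitrogen) and the marker lists were chosen with earlier results of these data known. From each list the text names at most the 3 largest changes per comparison among members past the threshold with at least 1 CPM in a group, besides Nfe2l2, Keap1, Bach1 and Mtf1. Motifs were searched on both strands of the RefSeq promoter windows.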

Additional observations from a re-analysis of the deposited data

Results flagged for a closer look

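The results given here cover the 8 genes and the listed genes that the rule for named genes picked, where the cytokine response differed between dKO and WT, either in the fit with the replicate block within genotype or because both dKO pairs moved one way and both WT pairs the other. All values are differences of log2 responses, dKO minus WT. In the fit with the block, the adjusted p was under the threshold for Nqo1 (3.24), Mt1 (-0.56) and Mt2 (-1.36). Among listed genes it was so for Nfe2l2 (0.72), Txn1 (0.80), Ephx1 (1.19), Sod3 (1.06), Gpx8 (0.88) and Txnip (0.71). It was also so for the zinc importer genes Slc39a14 (-1.54), Slc39a6 (-0.60) and Slc39a8 (0.97), the iron and heme genes Lcn2 (-1.28), Fech (0.48) and Slc48a1 (1.67), and the oxidase subunit genes Cybb (1.17) and Cyba (-1.06). In the fit without a block none of these passed. The fit with the block has fewer residual degrees of freedom. Some of its adjusted p were just under the threshold, as for Nqo1 (0.0479), Txn1 (0.0473) and Nfe2l2 (0.0497).

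In the numbered pairs Nqo1, Txn1 and Slc48a1, named above, were higher with cytokines in dKO and lower in WT. Opposite directions were also seen for Gclm (1.93, adjusted p = 0.448), Taldo1 (1.37, 0.277), Gsta4 (4.05, 0.521), Cbr3 (1.35, 0.462) and Blvrb (1.42, 0.368), all higher with cytokines in dKO and lower in WT. None of these differences passed the edgeR test. Over the 93 listed genes tested with counts in every library, 16 had higher levels in both dKO pairs and lower in both WT pairs. Of these 16, 6 are named here, and 1 other listed gene went the opposite way. The same count was not made over all tested genes, so these counts do not set the listed genes apart from the rest.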

How the results depend on the processing

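RLE and upper-quartile scaling kept the number of the 8 genes called in all 5 comparisons, and moved the median of all genes by under 0.1 on the log2 scale. In dKO against WT without cytokines, 2 of the 8 passed, 1 to 3 with a library left out and 4 without both dKO replicate 2 libraries. Over all genes 3620 passed, 527 to 3783 with a library left out, 2266 with the compared groups alone and 5602 without both dKO replicate 2 libraries. In WT with cytokines against without, 2 of 8 passed (1 to 2 with a library left out) and 2733 of all genes (413 to 2749). That was 4585 with the compared groups alone, 5943 with the replicate block within genotype and 4417 without both dKO replicate 2 libraries. In dKO with cytokines against without, 1 of 8 passed, 0 to 6 with a library left out, 6 in DESeq2, 0 with the compared groups alone, 2 with a replicate block across genotypes, 3 with the replicate block within genotype and 6 without both dKO replicate 2 libraries. Over all genes 872 passed, 130 to 731 with a library left out, 1734 in DESeq2, 1 with the compared groups alone, 1351 and 3770 with the replicate block across and within genotype, and 1339 without both dKO replicate 2 libraries. In dKO against WT with cytokines, 5 of 8 passed, 0 to 7 with a library left out, 2 with no filter, 2 with the compared groups alone and 8 without both dKO replicate 2 libraries, and 5343 of all genes (1622 to 5523 with a library left out). For the difference of responses 0 of 8 passed, 0 to 3 with a library left out, 1 in DESeq2, 3 with the replicate block within genotype and 4 without both dKO replicate 2 libraries. Over all genes it was 0, 0 to 41 with a library left out, 75 with no filter, 372 in DESeq2, 947 with the replicate block within genotype and 194 without both dKO replicate 2 libraries. The cause of these changes was not tested, beyond there being fewer libraries in a fit. A library left out left 1 in its group, and without both dKO replicate 2 libraries each dKO group was 1 library. Calls that involve such a group are not replicated results.

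Fitted log2 fold changes that did not pass changed sign in some settings, given as ranges over the libraries left out in turn. In dKO against WT without cytokines, Nqo1 ran over -0.85 to 0.048 (above 0 without dKO replicate 2 or WT replicate 1) and was 0.031 without both dKO replicate 2 libraries. Gclm ran over -0.029 to 0.24 (below 0 without dKO replicate 1), and Srxn1 over -0.25 to 0.18 (above 0 without dKO replicate 2 or WT replicate 1), with 0.015 under upper-quartile scaling and 0.17 without both dKO replicate 2 libraries. In the WT response, Txnrd1 ran over -0.13 to 0.14 (above 0 without WT replicate 2 or WT replicate 1 with cytokines) and Srxn1 from -0.0026 (without WT replicate 1 with cytokines) to 0.24. In the dKO response, Mt1 ran over -0.19 to 0.61 (below 0 without dKO replicate 2 or dKO replicate 1 with cytokines). The Sod2 difference of responses ran over -0.26 to 0.088 (above 0 without dKO replicate 2 with cytokines) and was 0.15 without both dKO replicate 2 libraries. The Mt2 level of WT without cytokines rests on 16 and 24 counts.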

Other observations

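Sources of reactive oxygen and nitrogen were counted too (13 of 16 listed genes tested). Relative to WT, 5 were higher and 2 lower in dKO with cytokines and 5 higher and 0 lower without, where 34% and 23.1% of all tested genes were called in either direction. The median log2 fold change of the list was 0.50 with and 0.44 without (all tested genes 0.01 and 0.02). Nos2, the inducible nitric oxide synthase, stood at 1008 and 380.1 CPM with and 22.6 and 17.9 CPM without cytokines in dKO (log2 fold change 5.10, SE 0.55, adjusted p = 0.0117), and at 258 and 220.3 CPM with and 3.84 and 2.32 CPM without in WT (log2 fold change 6.28, SE 0.59, adjusted p = 0.0036). Cybb, the catalytic subunit of the phagocyte NADPH oxidase, stood at 186 and 122 CPM in dKO and 2.69 and 7.34 CPM in WT with cytokines (log2 fold change 4.93, SE 0.68, adjusted p = 0.00563) and at 19.4 and 10.1 CPM in dKO and 0.590 and 1.52 CPM in WT without (log2 fold change 3.79, SE 0.70, adjusted p = 0.0174). It was 10.4-fold higher with cytokines in dKO (adjusted p = 0.0407). Its partner subunit gene Cyba was 2.58-fold higher with cytokines in WT (adjusted p = 0.00249). Noxa1, an oxidase activator gene, was 7.22-fold higher in dKO than in WT with cytokines (adjusted p = 0.0157) and 7.36-fold without (adjusted p = 0.0217). Xdh, xanthine dehydrogenase, was 6.59-fold higher in dKO with cytokines (adjusted p = 0.00349) and 7.81-fold without (adjusted p = 0.00423). With cytokines 3 were higher and 0 lower in each genotype (median 0.76 in dKO and 0.86 in WT), where 5.55% of all tested genes were called in dKO and 17.4% in WT. With the replicate block within genotype, 12.7% of all tested genes were higher and 11.3% lower in dKO, and 19.3% and 18.5% in WT. The list's counts in that fit were 5 higher and 1 lower in dKO and 6 higher and 1 lower in WT. Among those higher was the scarce Ncf4, at 0.953 and 1.55 CPM with and 0.0893 and 0.0416 CPM without in dKO. In WT it had 12 counts with cytokines and 0 without, at least 4.71-fold higher. Leukocytes also express Cybb and Ncf4, and the Kupffer cell and leukocyte markers summed to 178 and 138 CPM in dKO with cytokines, 201 and 202 CPM in dKO without, 522 and 550.4 CPM in WT with and 252 and 395 CPM in WT without, nearly all of it Cd14, with Ptprc under 0.1 CPM throughout. Their part was not tested. The count of 5 without cytokines was 1 without dKO replicate 1 or WT replicate 1, 3 without dKO replicate 2 and 2 without WT replicate 2. That of 7 with cytokines was 2 without dKO or WT replicate 1 with cytokines and 4 without WT replicate 2 with cytokines. That of 3 in the dKO response was 0 without dKO replicate 1 and 1 when a single library other than either dKO library without cytokines was left out.

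Of the iron and heme genes, 14 of 14 were tested. Set against WT, 4 were higher and 3 lower in dKO with cytokines and 2 higher and 2 lower without, shares of the list beside 34% and 23.1% of all tested genes. The median log2 fold change was 0.02 with cytokines and -0.00086 without (all tested genes 0.01 and 0.02). Lcn2, the siderophore-binding lipocalin, stood at 16914 and 11237 CPM in dKO and 3637 and 3693 CPM in WT with cytokines (log2 fold change 1.94, SE 0.35, adjusted p = 0.00897) and at 15620.3 and 8550.2 CPM in dKO and 1111 and 1439 CPM in WT without (log2 fold change 3.24, SE 0.36, adjusted p = 0.00401). The heme transporter gene Slc48a1 stood at 644 and 303 CPM in dKO and 64.3 and 61.6 CPM in WT with cytokines (log2 fold change 2.91, SE 0.36, adjusted p = 0.00388). Fech, the last enzyme of heme synthesis, was 1.96-fold higher in dKO than in WT with cytokines (adjusted p = 0.00672). Without cytokines, Flvcr2 was 4.07-fold higher in dKO than in WT (adjusted p = 0.0402), and Aco1, which also serves as an iron sensor, was lower (log2 fold change -0.67, SE 0.11, adjusted p = 0.0118). In WT 2 were higher and 2 lower with cytokines, beside 9.72% and 7.69% of all tested genes. Lcn2 (log2 fold change 1.52, SE 0.34, adjusted p = 0.0288) and Aco1 (log2 fold change 0.59, SE 0.11, adjusted p = 0.0192) were higher and Fech lower (log2 fold change -0.89, SE 0.15, adjusted p = 0.014). In dKO 0 of the 14 passed by edgeR, beside 5.55% of all tested genes, and 1 passed in DESeq2. There, 4 had an unadjusted edgeR p under 0.05, beside 3672 of all 15698. The list's median response was 0.10 in dKO and -0.04 in WT (all tested genes -0.01 in each). With the replicate block within genotype, 12.7% of all tested genes were higher and 11.3% lower in dKO, and 19.3% and 18.5% in WT. The list's counts in that fit were 3 higher and 1 lower in dKO and 4 higher and 3 lower in WT. The count of 4 without cytokines was 1 without dKO replicate 1 or either WT library lacking cytokines and 2 without either WT library with them. That of 7 with cytokines was 4 without WT replicate 1 with cytokines and 3 without WT replicate 2 with cytokines, and that of 4 in the WT response was 0 when a single WT library was left out.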
